A study of Mus musculus with 12 samples.

Results

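The genes described here are the mouse genes whose symbols carry the proteasome prefixes Psma, Psmb, Psmc, Psmd, Psme, Psmf or Psmg, without the inducible genes Psmb8, Psmb9, Psmb10, Psme1 and Psme2. They were taken by symbol from the probe sets annotated to exactly 1 gene, with the probe set of the highest mean kept for each gene. This gave 45 genes of the 19938 genes tested. Of these, 43 encode subunits, chaperones or regulators of the proteasome, and the prefix also caught Psmc3ip, a meiotic recombination factor, and Psme3ip1, a partner protein of Psme3.

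Expression was measured in macrophages of the peritoneal (abdominal) cavity of female mice on 12 one-colour Affymetrix whole-transcript arrays in 4 groups of 3. Wild-type C57Bl/6 cells and Nfkbiz-/- cells were each left untreated or given lipopolysaccharide (LPS) at 1 µg/ml for 4 h. Cells of all groups were rinsed out of the abdominal cavity with PBS and plated for a short time before use, and the labels name no sort or gate. The labels do not say which exons the Nfkbiz-/- allele lacks, what its genetic background is, or whether a group's 3 arrays stem from different mice. The p-values therefore reflect the scatter among these arrays, and that scatter may be technical.

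The proteasome degrades proteins tagged with ubiquitin. Its 20S core is a barrel of stacked rings, with outer alpha rings that gate entry and inner beta rings that hold the proteolytic sites, carried by the beta subunits encoded by Psmb5, Psmb6 and Psmb7. The 19S cap recognises ubiquitin, removes it and unfolds the substrate with a ring of ATPases, other activators can bind in its place, and dedicated chaperones assemble both particles. In cells that receive interferon, the catalytic subunits encoded by Psmb8, Psmb9 and Psmb10 take the places of those encoded by Psmb5, Psmb6 and Psmb7, and peptides made this way feed antigen presentation. LPS activates macrophages through Toll-like receptor signalling, and Nfkbiz encodes IκBζ, an LPS-induced nuclear protein of the IκB family that is needed for full induction of a subset of secondary response genes such as Il6.

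Array medians of the deposited linear intensity lay between 110.4 and 118.7, and arrays of 1 group correlated at 0.984 to 0.994 on the log2 scale. The Nfkbiz signal was 406.3 to 462.6 in untreated and 3079 to 3786 in LPS-treated wild-type arrays, against 266.9 to 285.6 and 1335 to 1634 in the knockout. It was lower in the knockout by limma in both states, with log2 differences of -0.65 (SE 0.10, adjusted p = 0.0401) and -1.17 (SE 0.10, adjusted p = 7.23e-05), yet still rose with LPS, and where its probes lie relative to the deletion was not examined. Il6 rose with LPS in wild type (6.80, SE 0.34, adjusted p = 1.32e-07) and in the knockout (6.73, SE 0.34, adjusted p = 1.20e-07). The difference between these responses was -0.07 by limma (SE 0.48, adjusted p = 0.972), so a weaker Il6 response in the knockout is not shown here. With LPS all knockout arrays lay below all wild-type arrays for Il6, but the difference was not called (-0.71, SE 0.34, adjusted p = 0.248). All 8 macrophage markers on the list were measured, with a mean log2 signal of 12.03 to 12.69 per array. Single markers varied more, as Fcgr1 ran from 236.6 to 1817 over wild-type LPS arrays and from 425.6 to 2455 over knockout LPS arrays. Markers of large peritoneal macrophages had a mean log2 signal of 9.57 to 10.65, with Timd4 at 162.6 to 2608. Markers of B cells (7.06 to 8.40) and mast cells (6.44 to 6.98 in wild type, 6.46 to 8.45 in the knockout) varied most among the other cell types looked at, and their part in any result below was not tested. In bulk samples like these, fewer cells of a type and less RNA per cell cannot be told apart.

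Differences below are log2 differences between group means of the log2 intensity with their standard error (SE), from a limma fit with n = 3 arrays per group. A gene is called, and is said to have risen or fallen, where the p adjusted by Benjamini-Hochberg over all 19938 genes is under 0.05. The median residual SD of the 45 genes was 0.124 on the log2 scale, the same as for all genes.

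In wild-type macrophages LPS raised the mRNA of 16 of 31 genes of the 20S core and 19S cap, and lowered 3 of 4 chaperones that start assembly of the core. Of the 45 genes, 17 were called higher and 4 lower, and 24 were not called. Among all genes 28.1% were called in this comparison, 9.53% higher and 18.5% lower, against 46.7% of the 45 called in either direction. The 45 genes are mostly bright, 38 of them above the 75th percentile of mean signal. With only genes above the median signal tested, 17 of 41 were called higher and 4 lower. Of all such genes 49.2% were called and 15.7% higher, so the share called in either direction was near this background. All LPS arrays lay above all untreated arrays for 19 of the 45 genes and below them for 6, against 23.2% and 24.3% of all genes. The median difference of the 45 genes was 0.08, against 0.04 over all genes. In the knockout 15 were called higher, 7 lower and 23 not, that is 48.9% called, where 45.7% of all genes were called, 21.9% higher and 23.8% lower. Arrays were fully separated upward for 16 of the 45 and downward for 10, against 28.3% and 25.5% of all genes. The share called in the knockout was thus near the background, and the median was 0.05 against 0.07 over all genes. Above the median signal, 15 of 41 were called higher and 7 lower in the knockout, where 63.9% of such genes were called and 22% higher. Leaving aside Psma8, a testis subunit, and Psmb11, a thymus subunit, the 31 genes for 20S and 19S subunits had 16 called higher and 0 lower in wild type, with a median of 0.33 (at unadjusted p under 0.05 these were 17 and 0). In the knockout the same 31 genes had 13 called higher and 2 lower, with a median of 0.17.

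The 2 responses had 17 called genes in common, 13 higher in both genotypes and 4 lower in both. Another 4 were called in wild type and not in the knockout, 5 in the knockout and not in wild type, and 19 in neither. The overlap was not counted over all genes, of which 28.1% were called in wild type and 45.7% in the knockout. Whether it is larger than for other genes was not tested. The numbers called in each genotype depended on the scaling of the arrays. After a further quantile normalization, 20 genes were called higher and 2 lower in wild type, where 27.7% of all genes were called and 12.3% higher, and 16 and 7 in the knockout, where 40.3% were called and 19.9% higher. With every array centred at its 75th percentile, they were 26 and 2 in wild type and 25 and 4 in the knockout. Of all genes, that setting called 51.1% in wild type (37.2% higher) and 72.2% in the knockout (55.3% higher), so the knockout share of the 45 genes was near the background. That centring moved the median difference of all genes to 0.19 in wild type and 0.28 in the knockout, where the medians of the 45 genes were 0.24 and 0.27.

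**Figure D1:**
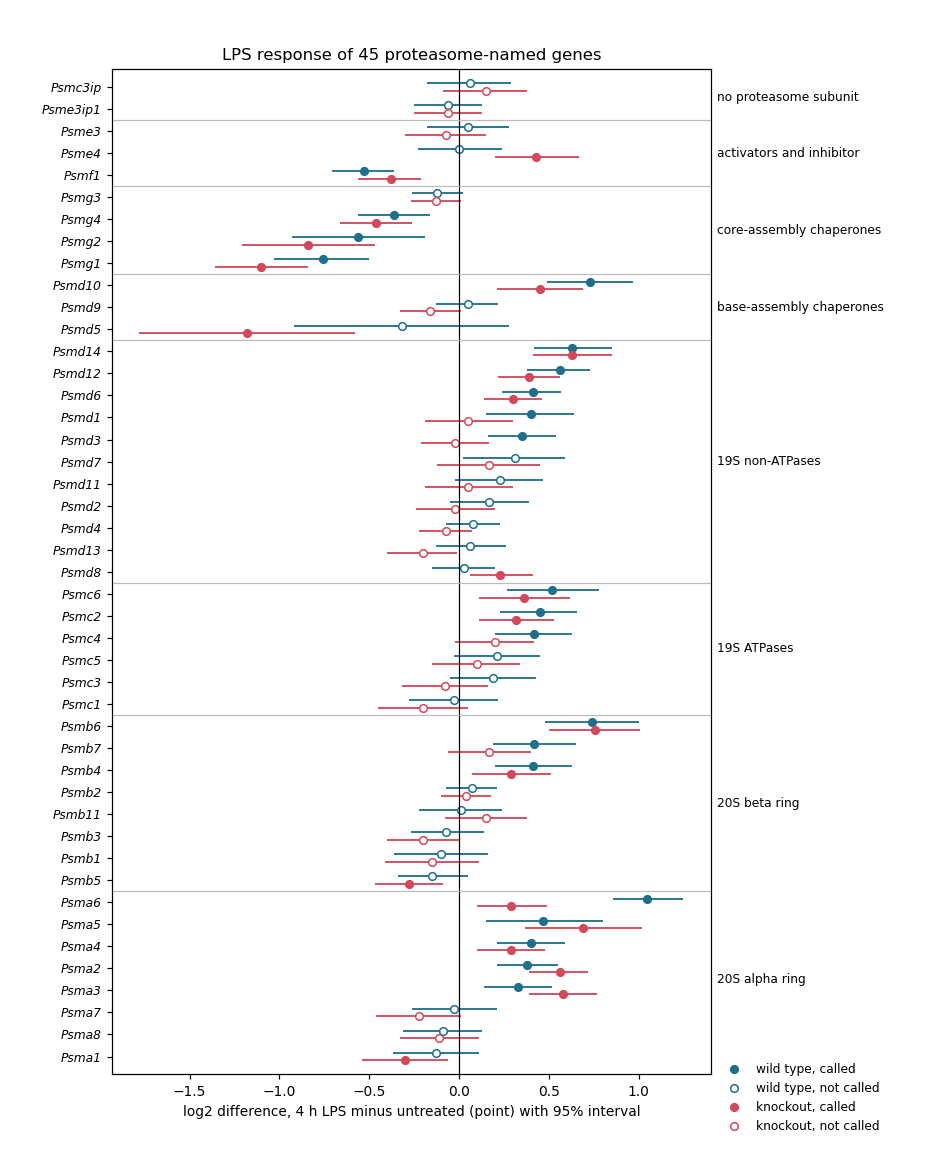
The log2 difference between 4 h LPS and untreated (horizontal axis) is shown for each of the 45 genes, grouped by role, in wild type (blue) and knockout (red), with 95% intervals from the limma fit over 12 arrays and filled points for called genes. Psma6 lies farthest right in wild type at 1.05 and at 0.29 in the knockout, while Psmg1, Psmg2, Psmg4 and Psmf1 lie left of 0 in both.

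Promoters were read for the genes that the results below turn on, because Psma6, Psmb6 and Psmd14 rose together, Psmg1 fell, and Psme4 was high in 1 group. Of the 45 genes, 37 had an entry in the RefSeq promoter set for GRCm38.p6, and Psma8, Psmb1, Psmb2, Psmb7, Psmc3, Psmd3, Psmd7 and Psmg2 had none. Each sequence is the 200 bases just before the annotated transcript start, 5′ to 3′ on the strand of the gene, with matches to the searched motifs or their reverse complements in capitals. Psma6 has 2 annotated starts, and the array value does not separate them.
Psma6 downstream start, chr12:55398625-55398824, plus strand: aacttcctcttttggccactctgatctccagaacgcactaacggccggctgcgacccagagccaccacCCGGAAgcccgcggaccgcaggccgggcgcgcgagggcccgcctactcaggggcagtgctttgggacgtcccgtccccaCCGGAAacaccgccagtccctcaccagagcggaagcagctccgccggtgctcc
Psma6 upstream start, chr12:55384022-55384221, plus strand: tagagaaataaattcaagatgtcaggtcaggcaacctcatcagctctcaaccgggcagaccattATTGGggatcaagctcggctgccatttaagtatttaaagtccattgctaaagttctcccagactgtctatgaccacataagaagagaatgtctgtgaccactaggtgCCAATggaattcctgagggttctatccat
Psmb6, chr11:70525157-70525356, plus strand: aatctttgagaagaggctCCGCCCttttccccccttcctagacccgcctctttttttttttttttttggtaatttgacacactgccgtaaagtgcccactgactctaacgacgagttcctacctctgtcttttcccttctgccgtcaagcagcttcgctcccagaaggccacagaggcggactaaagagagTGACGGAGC
Psmd14, chr2:61711494-61711693, plus strand: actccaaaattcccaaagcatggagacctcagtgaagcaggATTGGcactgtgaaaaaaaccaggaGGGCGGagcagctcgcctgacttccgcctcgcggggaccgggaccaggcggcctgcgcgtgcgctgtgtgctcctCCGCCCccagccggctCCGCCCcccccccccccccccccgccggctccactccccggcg
Psmg1, chr16:95990961-95991160, minus strand: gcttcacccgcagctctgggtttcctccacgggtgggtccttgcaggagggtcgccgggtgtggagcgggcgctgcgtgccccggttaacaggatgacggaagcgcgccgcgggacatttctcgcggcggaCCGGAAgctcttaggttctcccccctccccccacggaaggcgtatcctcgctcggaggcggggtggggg
Psme4, chr11:30771575-30771774, plus strand: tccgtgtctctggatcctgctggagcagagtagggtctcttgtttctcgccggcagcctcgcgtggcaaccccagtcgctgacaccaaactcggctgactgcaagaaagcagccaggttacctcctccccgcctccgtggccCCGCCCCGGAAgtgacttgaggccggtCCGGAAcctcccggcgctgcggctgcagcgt
The motifs were searched on both strands over 250 bases before the start. They were CCGGAA (core of ETS-family sites), GGGCGG (the GC box of Sp-family factors) and CCAAT (bound by nuclear factor Y). TGACNNNGC (core of the antioxidant response element, to which NFE2L1 and NFE2L2 bind) was searched as well. So was a narrow form of the κB consensus of NF-κB proteins, in which a run of T is fixed before the final C bases. The downstream Psma6 start has CCGGAA on the gene's strand, with first bases at -132 and -53 relative to the start, and the upstream start has CCAAT instead, at -136 (reverse) and -29. Psmb6 has TGACNNNGC from -9 and a reversed GC box at -182. Psmd14 has a GC box at -134, reversed GC boxes at -59 and -43 and a reversed CCAAT at -159. Psmg1 has CCGGAA at -69. Psme4 has CCGGAA at -53 and -31 and a reversed GC box at -58 that overlaps the first of these, so that both are in 1 run of capitals.

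CCGGAA was found for 18 of the 37 genes (48.6%), a gene counting if any of its annotated starts had a match. It was found for 13.6% of 27025 genes with an entry and 17.9% of the 15614 that were also tested on the arrays. Of the 4100 of those above the 75th percentile of mean signal, 27.5% had it. By role CCGGAA was found for 4 of 5 genes of 19S ATPases and 6 of 9 of 19S non-ATPases. The alpha ring had it in 2 of 7 genes, the beta ring in 0 of 5, and the activators and inhibitor in 3 of 3. It was found for 7 of 15 genes that rose in wild type and for 11 of 22 of the others. GGGCGG was found for 20 genes (54.1%, against 35.4% of all genes and 68.6% of the high-signal genes) and CCAAT for 15 (40.5%, against 37.5% and 39.3%). TGACNNNGC was in 5 (13.5%, against 11.5% and 14.2%), namely Psmb5, Psmb6, Psmc6, Psmd12 and Psmd9. The narrow κB form was in 1 (2.70%, against 1.65% and 2.05%), that of Psme3ip1. Looser κB forms were not searched for, so the other promoters, including those of Psma6, are not shown to lack κB sites. These counts describe letters in a window and show no binding.

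The alpha ring had 5 of its 8 genes called higher in each genotype, where 9.53% of all genes were in wild type and 21.9% in the knockout. Psma6, an alpha-ring subunit, had the largest rise of the 45 genes in wild type and differed most clearly by genotype. Its intensity was 1589, 1610 and 1558 in untreated wild-type arrays and 3289, 2954 and 3667 with LPS. In the knockout it was 1527, 1568 and 1537 untreated and 1820, 1778 and 2095 with LPS. The untreated arrays of both genotypes thus lay within a narrow band, and every LPS array of wild type lay above every LPS array of the knockout. The rise was 2.08-fold in wild type (log2 1.05, SE 0.09, adjusted p = 5.61e-06) and 1.23-fold in the knockout (0.29, SE 0.09, adjusted p = 0.0177). Without knockout LPS replicate 3 the knockout rise was 0.22 and no longer called (adjusted p = 0.0725).

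Psma5, another alpha-ring gene, was 741.1, 575 and 585.3 in untreated wild type and 789.9, 1130 and 747.7 with LPS. In the knockout it went from 625.7, 614.6 and 617.5 to 1072, 890 and 1054. The groups did not overlap in either genotype, although wild-type replicate 2 stood well above the other LPS arrays. The difference was 0.47 in wild type (SE 0.15, adjusted p = 0.0338) and 0.69 in the knockout (SE 0.15, adjusted p = 0.00288). Without wild-type LPS replicate 2, untreated replicate 2 or untreated replicate 3, the wild-type difference was 0.29, 0.41 or 0.42 and not called (adjusted p 0.116 to 0.119).

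Psma2 (0.38 and 0.56), Psma3 (0.33 and 0.58) and Psma4 (0.40 and 0.29) also rose in wild type and knockout. Psma3 in wild type was not called without LPS replicate 1 (0.31), LPS replicate 2 (0.25) or untreated replicate 2 (0.31), with adjusted p of 0.0514 to 0.0599. Psma4 in the knockout was not called without LPS replicate 1 (0.27), LPS replicate 2 (0.24) or untreated replicate 3 (0.25), with adjusted p of 0.0504 to 0.0627. Psma1 was called lower in the knockout (-0.30, adjusted p = 0.0426) and not in wild type (-0.13, adjusted p = 0.421). The knockout call of Psma1 was lost in 7 of 12 fits that left out 1 array, where its difference was -0.23 without LPS replicate 3 and -0.32 to -0.26 without LPS replicate 1, any knockout untreated array, wild-type LPS replicate 1 or wild-type untreated replicate 3. It was also lost after quantile normalization (-0.30, adjusted p = 0.0512) and 75th percentile centring (-0.09, adjusted p = 0.422). Psma7 (-0.03 and -0.22) and the testis subunit Psma8 (-0.09 and -0.11) were not called in either genotype.

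The catalytic subunits of the beta ring did not move together. Psmb6, which cleaves after acidic residues, was 1527, 1443 and 1380 in untreated wild type and 2510, 2382 and 2361 with LPS. Knockout arrays gave 1626, 1732 and 1205 untreated and 2383, 2535 and 2710 with LPS. No untreated array overlapped with the LPS arrays, and the rise was 1.67-fold in wild type (0.74, SE 0.12, adjusted p = 0.000551) and 1.69-fold in the knockout (0.76, SE 0.12, adjusted p = 0.000309).

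Psmb7, which cleaves after basic residues, was 1303, 1083 and 1115 in untreated wild type and 1547, 1531 and 1578 with LPS. The knockout values were 1213, 1440 and 1124 untreated and 1508, 1448 and 1273 with LPS, and these groups overlapped. Psmb7 rose in wild type (0.42, SE 0.11, adjusted p = 0.011), and its knockout difference was 0.17 (SE 0.11, adjusted p = 0.21).

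Psmb5, which cleaves after hydrophobic residues and is the target of proteasome inhibitor drugs, was 7238, 6955 and 6597 in untreated wild type and 6310, 5652 and 6852 with LPS. Knockout arrays read 7073, 7512 and 6611 untreated and 5779, 6236 and 5436 with LPS. The wild-type groups overlapped (-0.15, SE 0.09, adjusted p = 0.249), and in the knockout all LPS arrays were lower (-0.28, SE 0.09, adjusted p = 0.0224). That call was lost without knockout LPS replicate 1 (-0.28) or 3 (-0.23) and without knockout untreated replicate 1 (-0.28) or 2 (-0.24), and after 75th percentile centring (-0.07, adjusted p = 0.463). Among the structural beta subunits, Psmb4 rose in both genotypes (0.41 and 0.29), and Psmb1 (-0.10 and -0.15), Psmb2 (0.07 and 0.04), Psmb3 (-0.07 and -0.20) and the thymus subunit Psmb11 (0.01 and 0.15) were not called in either. Psmb4 in the knockout was not called without LPS replicate 2 (0.29) or 3 (0.22) or untreated replicate 2 (0.27) or 3 (0.22), with adjusted p of 0.0671 to 0.124.

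The inducible counterparts were measured on the same arrays. In wild type, Psmb8 was 1095, 862.5 and 862.2 untreated and 1368, 2092 and 962.8 with LPS, and in the knockout 1212, 1039 and 1356 untreated and 2251, 2048 and 2425 with LPS. Psmb9 was 617.6, 596.8 and 503.6 untreated and 896.5, 1476 and 562.8 with LPS in wild type, and 816.9, 688.4 and 837.9 untreated and 1507, 1425 and 1987 with LPS in the knockout. Psmb10 was 1220, 1017 and 979.4 untreated and 1218, 1990 and 852.8 with LPS in wild type, and 1192, 1359 and 1199 untreated and 2242, 2660 and 2545 with LPS in the knockout. For all of them, replicate 2 of wild type with LPS was high and replicate 3 was near the untreated level, whereas all knockout LPS arrays were above the untreated ones. In wild type they were not called, at 0.59, 0.67 and 0.26 (adjusted p 0.0733, 0.0881 and 0.451), and in the knockout they rose by 0.90, 1.06 and 0.99 (adjusted p 0.00657, 0.00759 and 0.00463). The interactions were not called, at 0.32, 0.39 and 0.73 (adjusted p 0.727, 0.72 and 0.37), so the responses are not shown to differ between genotypes. With LPS, Psmb10 was higher in the knockout than in wild type (0.96, SE 0.23, adjusted p = 0.0266), and Psmb8 (0.67, adjusted p = 0.0927) and Psmb9 (0.84, adjusted p = 0.0827) were not called. Psme1 and Psme2, which form the interferon-inducible activator, differed by 0.27 (adjusted p = 0.331) and 0.82 (adjusted p = 9.73e-05) in wild type, and rose by 0.60 and 0.81 in the knockout (adjusted p 0.0225 and 6.69e-05).

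A ratio within each array sets an inducible catalytic subunit against the constitutive one whose place it takes. The log2 ratio of Psmb8 to Psmb5 was higher with LPS by 0.73 in wild type and 1.18 in the knockout, with a mean of 0.96 (two-sided exact permutation test within genotype, p = 0.01, adjusted over 3 ratios p = 0.03, the smallest possible p being 0.005). With same-numbered arrays taken as pairs, the adjusted p was 0.0938 (exact sign-flip test), which is above the threshold. That is the smallest value the paired test could give here, as the other ratios had larger p, so it cannot decide. The ratio exceeded that of every untreated array of its genotype in 2 of 3 wild-type and 3 of 3 knockout LPS arrays, the exception being wild-type replicate 3 at -2.83, within the untreated range of -3.01 to -2.72. For Psmb9 over Psmb6 the difference was -0.07 in wild type and 0.30 in the knockout (exact p = 0.64, adjusted p = 0.64). For Psmb10 over Psmb7 it was -0.16 and 0.82 (exact p = 0.23, adjusted p = 0.345), and the wild-type LPS arrays ran from -0.89 in replicate 3 to 0.38 in replicate 2. Neither of these ratios passed the test, and Psmb6 itself rose in both genotypes.

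**Figure D2:**
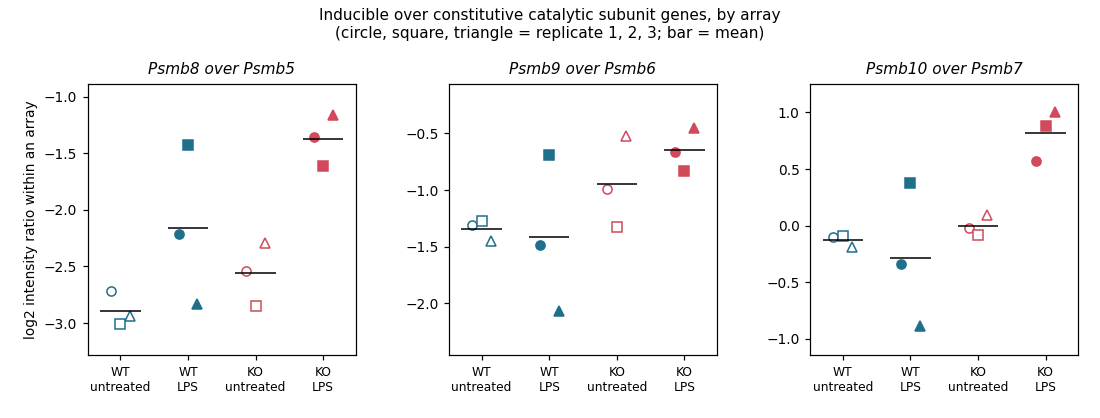
Each point is 1 array's log2 ratio of an inducible to a constitutive catalytic subunit gene (vertical axis, the same span of 2.4 log2 units in every panel but a different range), by group, with bars at group means. Psmb8 over Psmb5 is higher with LPS in both genotypes, and in all panels wild-type LPS replicate 2 (square) is the highest and replicate 3 (triangle) the lowest of its group.

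Genes for the 19S cap rose in part, and by limma 0 were called lower in either genotype (at unadjusted p under 0.05, 0 in wild type and 1, Psmd13, in the knockout). Of the 17 genes, 8 were called higher in wild type with a median difference of 0.31, against 9.53% and 0.04 for all genes. In the knockout 6 were called higher with a median of 0.10, against 21.9% and 0.07 for all genes. Among the ATPases that unfold substrates, Psmc6 (0.52), Psmc2 (0.45) and Psmc4 (0.42) rose in wild type. In the knockout Psmc6 (0.36) and Psmc2 (0.32) rose, and Psmc4 (0.20) was not called. Psmc5 (0.21 and 0.10), Psmc3 (0.19 and -0.08) and Psmc1 (-0.03 and -0.20) were not called in wild type or knockout. A second probe set of Psmc1, not used here, was called lower in the knockout by limma (-0.32, adjusted p = 0.0395). The knockout call of Psmc6 was lost without LPS replicate 1 (0.33) or 2 (0.29) or untreated replicate 1 (0.36) or 2 (0.30), and that of Psmc2 without LPS replicate 1 (0.28) or 2 (0.26) or untreated replicate 3 (0.30), with adjusted p of 0.0556 to 0.0888.

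Psmd14, the deubiquitinase of the lid, was 1532, 1221 and 1378 in untreated wild type and 2176, 1938 and 2288 with LPS. Its knockout signals were 1047, 1158 and 1217 untreated and 1673, 1881 and 1740 with LPS. It rose 1.55-fold in wild type (0.63, SE 0.10, adjusted p = 0.000522) and 1.55-fold in the knockout (0.63, SE 0.10, adjusted p = 0.000362), and every knockout array was below every wild-type array of the same treatment. Psmd12 (0.56 and 0.39) and Psmd6 (0.41 and 0.30), structural subunits of the lid, rose in both genotypes as well.

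Psmd1, the large scaffold of the base, was 2736, 2664 and 2673 in untreated wild type and 3468, 3015 and 4241 with LPS, against 2522, 2836 and 2522 and then 2701, 2926 and 2554 in the knockout. It rose in wild type (0.40, SE 0.11, adjusted p = 0.0189), where no arrays overlapped, and its knockout difference was 0.05 (SE 0.11, adjusted p = 0.707). The wild-type call was lost without LPS replicate 3 (0.26), untreated replicate 2 (0.39) or untreated replicate 3 (0.39), with adjusted p of 0.0554 to 0.0571. Psmd2, the other scaffold of the base and a docking site for ubiquitin shuttles, was 3040, 3454 and 3087 untreated and 3595, 3118 and 4092 with LPS in wild type. Its knockout values were 3206, 3157 and 2832 untreated and 2903, 2961 and 3195 with LPS. The groups overlapped in both genotypes (0.17, adjusted p = 0.255, and -0.02, adjusted p = 0.883).

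Psmd3, a lid subunit, was 926.6, 766 and 818 in untreated wild type and 1063, 997.4 and 1142 with LPS. The knockout arrays held 764, 811.5 and 762.8 untreated and 827, 755.3 and 731.2 with LPS. It rose in wild type (0.35, SE 0.09, adjusted p = 0.00926) with no overlap, and differed by -0.02 in the knockout (SE 0.09, adjusted p = 0.89). Psmd8 rose in the knockout (0.23) and was not called in wild type (0.03). The knockout call of Psmd8 was lost without LPS replicate 2 (0.18) or 3 (0.25) or untreated replicate 1 (0.21) or 3 (0.20), with adjusted p of 0.0527 to 0.113. The lid subunits Psmd7 (0.31 and 0.17), Psmd11 (0.23 and 0.05) and Psmd13 (0.06 and -0.20) and the ubiquitin receptor Psmd4 (0.08 and -0.07) were not called in either genotype.

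**Figure D3:**
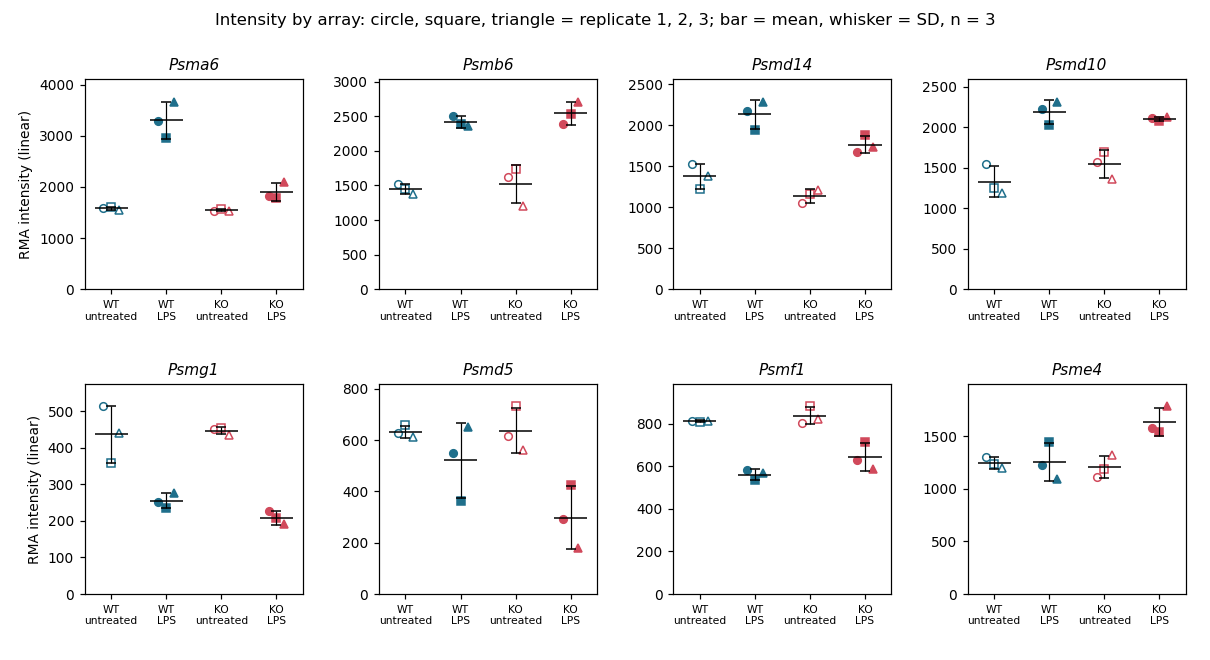
Linear RMA intensity (vertical axis from 0) on each of 12 arrays is shown for 8 genes by group, with a bar at the mean of 3 arrays and whiskers of 1 SD. The wild-type LPS arrays of Psma6 (2954 to 3667) stand above all others, the LPS arrays of Psmg1 (190.8 to 277.9) lie below all untreated ones, and Psmd5 spreads from 177.5 to 650 with LPS.

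The chaperones that assemble the core fell with LPS in 3 of 4 cases. Psmg1 to Psmg4 encode the chaperones that build the alpha ring, and every LPS array lay below every untreated array for all 4 genes in both genotypes, where 24.3% of all genes did so in wild type and 25.5% in the knockout. Of the 4, 3 were called lower in each genotype, with a median of -0.46 in wild type and -0.65 in the knockout. Among all genes 18.5% were called lower in wild type and 23.8% in the knockout. The 3 called genes lie above the median signal, where 49.2% of genes were called and 15.7% called higher in wild type. In the knockout those shares were 63.9% and 22%. Calls of a fall were thus more common among such genes than among all genes. Psmg1 was 513.8, 357.4 and 440.8 in untreated wild type and 252.5, 236.2 and 277.9 with LPS. Knockout cells had 451.7, 453.3 and 435.9 untreated and 228.3, 207.7 and 190.8 with LPS. It fell 1.70-fold in wild type (-0.76, SE 0.12, adjusted p = 0.000529) and 2.14-fold in the knockout (-1.10, SE 0.12, adjusted p = 2.41e-05).

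Psmg2, which pairs with Psmg1, was 261.4, 241.4 and 310.4 in untreated wild type and 161.8, 169.9 and 223.8 with LPS. Its knockout values were 264.3, 355.2 and 271.2 untreated and 162.4, 198.2 and 137.8 with LPS. It fell in wild type (-0.56, SE 0.17, adjusted p = 0.0283) and in the knockout (-0.84, SE 0.17, adjusted p = 0.00186). The wild-type call of Psmg2 was lost without LPS replicate 1 (-0.47) or 2 (-0.50) or untreated replicate 1 (-0.58) or 3 (-0.46), and after quantile normalization (-0.44) or 75th percentile centring (-0.40). Psmg4 fell by 0.36 (adjusted p = 0.0106) and 0.46 (adjusted p = 0.00173) on the log2 scale, the first of these not called after quantile normalization (-0.24) or centring (-0.21). Psmg3, its partner, was not called (-0.12 and -0.13, adjusted p 0.194 and 0.116).

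Among the chaperones of the 19S base, Psmd10, also known as gankyrin, was 1553, 1251 and 1190 in untreated wild type and 2227, 2028 and 2318 with LPS. The knockout went from 1579, 1700 and 1361 to 2117, 2076 and 2126. It rose 1.65-fold in wild type (0.73, SE 0.11, adjusted p = 0.000377) and 1.37-fold in the knockout (0.45, SE 0.11, adjusted p = 0.0059), with no overlap in either. Psmd5 was 629.1, 657.3 and 611.8 in untreated wild type and 549.5, 363.9 and 650 with LPS, and 617.4, 731.1 and 560.1 and then 290.4, 423 and 177.5 in the knockout. The wild-type groups overlapped (-0.32, SE 0.27, adjusted p = 0.425), and in the knockout it fell 2.26-fold (-1.18, SE 0.27, adjusted p = 0.00451). The 3 knockout LPS arrays of Psmd5 had an SD of 0.63 on the log2 scale, the widest of any group among the 45 genes. Psmd9, the remaining base chaperone, was not called in wild type (0.05) or knockout (-0.16).

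Of the regulators, Psmf1, which encodes the proteasome inhibitor protein of the core, was 813.9, 806.8 and 813.9 in untreated wild type and 581.3, 534.5 and 567.5 with LPS. In the knockout it was 805.3, 881.4 and 823.2 untreated and 627.7, 713.9 and 586.3 with LPS. It fell 1.45-fold in wild type (-0.53, SE 0.08, adjusted p = 0.000344) and 1.31-fold in the knockout (-0.38, SE 0.08, adjusted p = 0.00219), the latter not called after 75th percentile centring (-0.17, adjusted p = 0.075). Psme4, an activator of the core linked to histone degradation, was 1303, 1234 and 1197 in untreated wild type and 1228, 1441 and 1092 with LPS, and in the knockout 1112, 1192 and 1322 untreated and 1572, 1541 and 1782 with LPS. It did not differ beyond the spread in wild type (0.00, SE 0.11, adjusted p = 0.991, 95% interval -0.23 to 0.24) and rose 1.35-fold in the knockout (0.43, SE 0.11, adjusted p = 0.00632). Psme3, a nuclear activator related to Psme1 and Psme2, was 2094, 1878 and 1874 untreated and 1992, 1811 and 2278 with LPS in wild type. Its knockout values were 1692, 1778 and 1763 untreated and 1622, 1892 and 1482 with LPS, and the groups overlapped in both genotypes (0.05, adjusted p = 0.75, and -0.07, adjusted p = 0.581). The genes that share only the prefix, Psmc3ip (0.06 and 0.15) and Psme3ip1 (-0.06 and -0.06), were not called.

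Genotype was then compared within each treatment. In untreated cells 0 of the 45 genes were called by limma, where 0.0752% of all genes were, 0.0351% higher and 0.0401% lower. All knockout arrays lay above all wild-type arrays for 0 of the 45 and below them for 4, against 4.88% and 11.5% of all genes. At unadjusted p under 0.05 there were 3 of the 45, 2 lower and 1 higher in the knockout, against 8.68% of all genes. The median was -0.04, against -0.03 over all genes. The 95% intervals of all 45 lay within -0.60 to 0.60, the widest being that of Psmd5, so larger differences than this are outside the intervals.

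With LPS, 4 of the 45 were called, 3 lower and 1 higher in the knockout (8.89%), where 8.14% of all genes were called, 4.87% lower and 3.28% higher. This share is near the background. Psma6 was lower in the knockout by 1.74-fold, at a mean of 1898 against 3303 (-0.80, SE 0.09, adjusted p = 0.000412). Psmd3 was lower at 771.2 against 1068 (-0.47, SE 0.09, adjusted p = 0.008). For both genes all 3 knockout arrays were below all wild-type arrays, and both calls held in all 12 fits that left out 1 array.

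The other calls were close to the threshold. Psmd9 was 227.7, 224.8 and 257.6 in wild type and 191.2, 178.4 and 207.6 in the knockout with LPS, and 231.9, 220.1 and 234.1 and 223.1, 206.2 and 215 untreated (with LPS -0.30, SE 0.08, adjusted p = 0.0407). Psme4 was higher in the knockout at 1632 against 1254 (0.39, SE 0.11, adjusted p = 0.0474). The call of Psmd9 was lost without any 1 array except wild-type LPS replicate 2, knockout LPS replicate 3 and knockout untreated replicate 2, with differences of -0.33 to -0.24 and adjusted p up to 0.171. That of Psme4 was lost without any 1 array except wild-type LPS replicate 2 and knockout untreated replicate 3, with differences of 0.29 to 0.43 and adjusted p up to 0.191. Psmd5 (-0.86, SE 0.27, adjusted p = 0.0812) and Psmd1 (-0.38, adjusted p = 0.0594) were not called, and Psmd5 was called without wild-type LPS replicate 2 (-1.10) or knockout LPS replicate 2 (-1.16).

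Most of the remaining differences with LPS were below 0. Of the 45 genes, 35 had a lower mean in the knockout, where 10525 of 19938 genes did. The median was -0.17, against -0.01 over all genes. With only genes above the median signal, it was -0.2 for 41 of the 45, against -0.06 for all such genes. With 75th percentile centring it was -0.11, against 0.05 for all genes. In the 19S cap 16 of 17 genes were lower with a median of -0.25, including all 6 ATPases at -0.30 to -0.20, and 13 of the 17 were lower at unadjusted p under 0.05, though only Psmd3 passed the adjusted threshold. The alpha ring had 4 of 8 lower and a median of -0.01. Whether the cap differs from the ring in this was not tested. All arrays were separated in 13 of the 45 genes with the knockout lower and 5 with the knockout higher, against 14.2% and 10.3% of all genes. At unadjusted p under 0.05 there were 19 lower and 2 higher, against 22.0% of all genes in either direction. These genes are measured on the same 6 arrays and are not independent of each other. The number called moved with single arrays: without wild-type LPS replicate 2 it was 10 (1 higher, 9 lower), where 10.8% of all genes were called. In the other fits that left out 1 array it was 2 to 5.

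**Figure D4:**
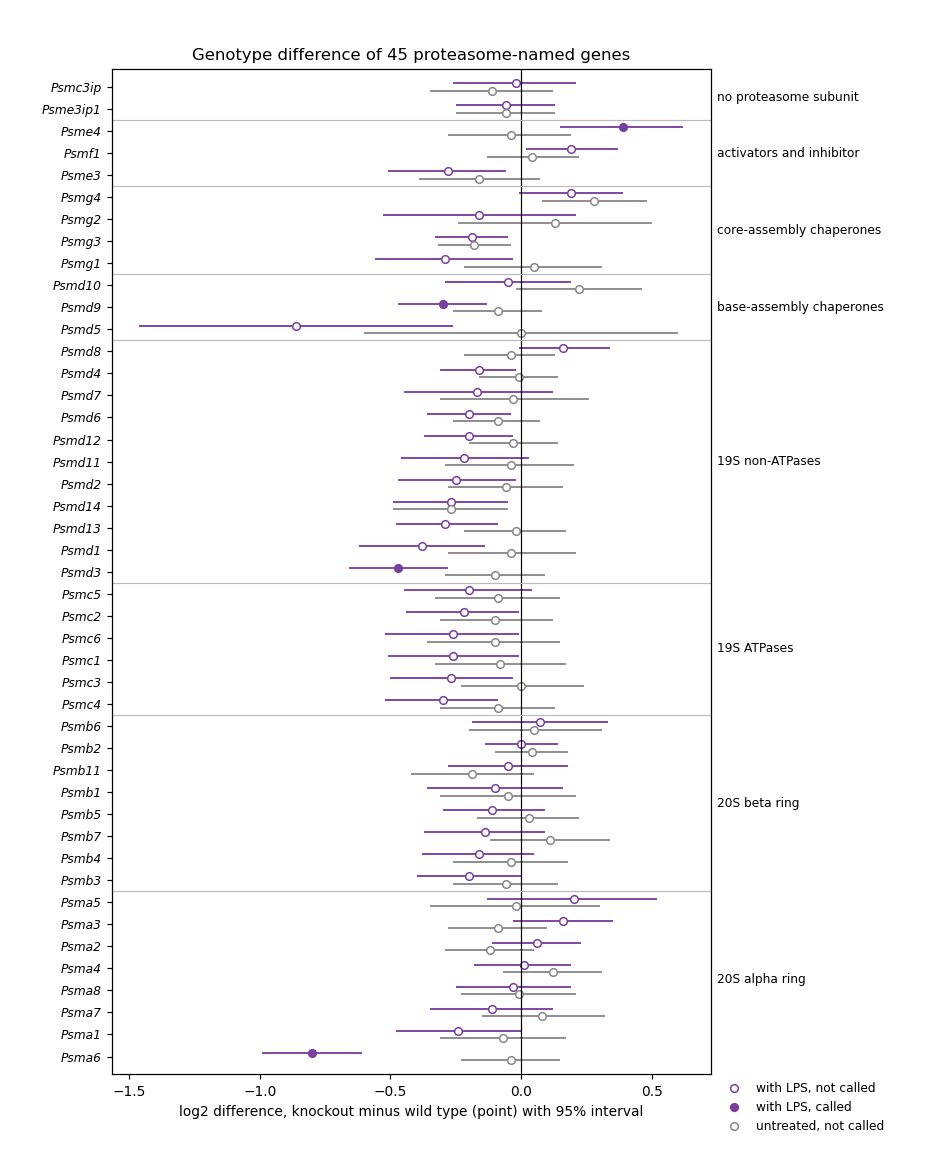
The log2 difference between knockout and wild type (horizontal axis) is shown for each of the 45 genes by role, with LPS (purple) and untreated (grey), with 95% intervals from the limma fit and filled points for called genes. Most purple points of the 19S genes lie left of 0, between -0.47 and 0.16, and Psma6 (-0.80) is the called gene farthest from 0.

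The difference between the genotypes' LPS responses was tested as an interaction, knockout response minus wild-type response. It was called for 1 of the 45 genes (2.22%), where 0.747% of all genes were called, 0.301% higher and 0.446% lower. That gene was Psma6, at -0.76 (SE 0.12, 95% interval -1.03 to -0.49, adjusted p = 0.0192). Its estimate stayed between -0.84 and -0.68 in every fit that left out 1 array. It was not called in 5 of them, without wild-type LPS replicate 1 (-0.76), wild-type untreated replicate 1 (-0.76), 2 (-0.77) or 3 (-0.75), or knockout untreated replicate 1 (-0.77), with adjusted p of 0.0527 to 0.0669.

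For the other 44 genes the interaction was not called. The largest estimates were those of Psmd5 (-0.86, adjusted p = 0.374), Psme4 (0.43, adjusted p = 0.238) and Psmd3 (-0.37, adjusted p = 0.209). The genes called in 1 genotype only, such as Psmd1 (-0.34, adjusted p = 0.383) and Psmb7 (-0.25, adjusted p = 0.523), are therefore not shown to respond differently. For Psmd14 and Psmb6, which rose in both genotypes, the interactions were 0.00 (95% interval -0.31 to 0.31) and 0.02 (-0.35 to 0.38). The estimate was below 0 for 36 of the 45 genes with a median of -0.13, against 9188 of 19938 genes and a median of 0.02 over all genes. The interaction uses the same arrays as the comparisons above and is not separate evidence from them.

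Other genes of the pathway, whose symbols lack the prefixes, were measured for 18 of the entries on a list of bound factors, transcription factors and ubiquitin genes. In wild type 4 were called higher and 6 lower (9.53% and 18.5% of all genes), and in the knockout 2 and 5 (21.9% and 23.8%). Between genotypes and for the interaction 0 were called by limma, and at unadjusted p under 0.05 there were 2 of 18 untreated, 5 with LPS (1 higher, 4 lower) and 0 for the interaction. Sem1, a small subunit of the lid that is not among the 17 cap genes counted above, rose in wild type (0.42, adjusted p = 0.00567) and was 0.24 in the knockout (adjusted p = 0.0558). Txnl1, a thioredoxin bound to the cap, rose in both (0.65 and 0.63, adjusted p 0.00626 and 0.00497), and Uchl5, a deubiquitinase of the cap, fell in both (-0.73 and -0.79, adjusted p 0.000536 and 0.000216). Pomp, the maturation factor of the core, was 0.14 in wild type (adjusted p = 0.377) and rose by 0.40 in the knockout (adjusted p = 0.0102).

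Of the factors known to drive proteasome genes, Nfe2l1 rose in wild type (0.41, adjusted p = 0.0296) and was 0.23 in the knockout (adjusted p = 0.151), and Nfe2l2 was 0.03 and -0.03 (adjusted p 0.792 and 0.773). Ngly1, the enzyme that removes sugars from the Nfe2l1 protein, fell in both genotypes (-0.48 and -0.54, adjusted p 0.0135 and 0.00442). Of the ubiquitin-binding shuttles, Ubqln2 (-0.43 and -0.39) and Ubqln4 (-0.31 and -0.39) fell in both, while Ubqln1 rose in wild type (0.25, adjusted p = 0.0495) and was 0.14 in the knockout.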

How the data were processed

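Gene expression was measured on 12 arrays, 3 in each of 4 groups taken from the sample titles. The deposited values are linear intensity values, 1 per probe set, which the authors summarised by RMA. The submitters' processing notes name Affymetrix Expression Console 1.1 for it, and neither its settings nor the build of the array annotation are stated there. As a method RMA includes quantile normalization, which hides a shift shared by most genes, and low signals understate fold changes. Of 35556 probe sets, 21789 carried 1 gene symbol, 1621 several and 12146 none in the platform annotation, and only those with 1 were used. The probe set with the highest mean was kept per gene, leaving 19938 genes. The 45 genes described had 51 probe sets, with several for Psma3, Psma5, Psmb3, Psmc1 and Psmd2, and all 45 matched RefSeq by symbol and Entrez identifier. No gene was dropped for low signal. Requiring a mean above the median of all genes, as an alternative, kept 41 of the 45.

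Intensity was turned to log2 with no pseudocount, and 4 group means were fitted with limma 3.58.1 in R 4.3.3 (lmFit, eBayes, 8 residual degrees of freedom). Contrasts set LPS-treated against untreated cells of either genotype and the knockout against the wild type under either treatment, with the interaction as the last. Benjamini-Hochberg adjustment ran over all 19938 genes with a threshold of 0.05 on the adjusted p, and intervals are at 95%. The number of arrays limits the precision. The 3 ratios of catalytic subunits were tested by an exact permutation of treatment labels within genotype (400 arrangements). Alternatives were 9 other settings, among them other scalings, array weights and the replicate number as a block, and leaving out each of the 12 arrays in turn.

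Promoter windows came from RefSeq for GRCm38.p6, and no protein sequence was used here. Per-array values are given for the 3 largest called differences in each direction of each contrast, the catalytic subunits, Psmd1, Psmd2, Psmd14 and the regulators. The genes and lists were chosen with earlier results of these data known. The labels do not say that the replicate numbers pair the samples, so the main fit took no pairs. Same-numbered untreated and LPS arrays deviated together at correlations of -0.07 to 0.36 in wild type and 0.32 to 0.57 in the knockout. The knockout arrays may thus be paired by number, and the fit with the replicate number as a block is given below for that case.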

Additional observations from a re-analysis of the deposited data

Results flagged for a closer look

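Psma6, the alpha-ring subunit gene, responded to LPS by different amounts in the genotypes in the test of that difference itself, with an interaction of -0.76 on the log2 scale (limma, SE 0.12, adjusted p = 0.0192). In wild type the signal rose from 1558 to 1610 over untreated arrays to 2954 to 3667 with LPS, and in the knockout from 1527 to 1568 to 1778 to 2095. The direction held in all 12 fits that left out 1 array, and the call was lost in 5 of them.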

How the results depend on the processing

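Among 53 differences of single genes, 475 values under 9 other settings held 453 on the same side of the threshold, 21 no longer called and 1 newly called. The 636 values with 1 array left out held 567, 67 and 2. No called difference changed direction. Direction was not counted for those not called, and that of Psmd5 between untreated genotypes ran from -0.1 to 0.09 with 1 array left out. Of the 45 genes, 4 were called between genotypes with LPS, against 2 with a trended robust fit, 15 with array weights (1 higher and 14 lower, where 16.5% of all genes were called) and 2 with only the arrays compared (2.47% of all genes). With 1 array left out this count was 2 to 10 and the interaction count 0 to 1, and the cause was not tested. The Psmb9 to Psmb6 ratio was 0.02 to 0.28 with 1 array left out, except -0.06 without wild-type LPS replicate 2. With the replicate block, 17 genes were called higher and 4 lower in wild type, 15 and 6 in the knockout, 0 and 3 between genotypes with LPS, and 0 and 1 for the interaction, so that the calls of Psma1 in the knockout (adjusted p = 0.0636) and Psme4 (adjusted p = 0.07) were lost. The paired Psmb8 to Psmb5 ratio was 0.96 with an adjusted p of 0.0938 (exact sign-flip test of same-numbered pairs). It was no longer called, but this is the smallest value the paired test could give here, so the loss decides nothing. This test over 3 ratios can give a smaller adjusted p only where another ratio has a small p too. Each array correlated best with its own number for 1 of 3 wild-type and 3 of 3 knockout replicates, a hint from the data and not the design. Arrays give no read depth, and 4 of the 45 genes lay below the median signal.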

Other observations

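Psma6 was set beside its neighbours after its values were seen. In RefSeq GRCm38.p6 the nearest protein-coding genes on either side are Prorp, for the protein-only nuclease that matures mitochondrial transfer RNAs, and Nfkbia, for the NF-κB inhibitor IκBα. By limma, Prorp fell with LPS in wild type (-0.69, adjusted p = 0.000136) and more in the knockout (-1.38, adjusted p = 7.16e-07), with an interaction of -0.69 (adjusted p = 0.0363). Nfkbia rose in both genotypes (1.58, adjusted p = 2.34e-06, and 1.69, adjusted p = 1.03e-06), with an interaction of 0.11 (adjusted p = 0.839). Of the 5 genes with several probe sets, the other probe sets gave the same calls except for Psmc1, whose second probe set was called lower with LPS in the knockout (-0.32, adjusted p = 0.0395) where the one used was not (-0.20, adjusted p = 0.165).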
